A study of Mus musculus with 10 samples.

Results

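The loops around 7 Toll-like receptor genes and Cd14 were examined in Hi-C data from mouse bone marrow-derived macrophages. The genes were Tlr1, Tlr2, Tlr3, Tlr4, Tlr5, Tlr6, Tlr9 and Cd14, which are 8 of 21755 protein-coding genes in the annotation. A loop was a pair of 10 kb bins listed as a significant contact, and it was assigned to a gene when either bin overlapped the 100 kb on each side of the gene's transcription start site (TSS). By this rule between 179 and 218 loops of a list lay near at least 1 of the genes. The annotation was GENCODE M21 on GRCm38, and all positions below are on that build.

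The cells came from the marrow of wild-type female C57BL/6 mice aged 2 to 3 months and were differentiated in M-CSF at 20 ng/ml, with treatments starting on day 6. M0[CTR] received no cytokine. M2[IL-4] received IL-4 at 20 ng/ml for 24 h. M2p[pIL-4] received the same IL-4 exposure, was washed and then rested for 24 h without IL-4, so that it stands for primed cells after removal of the cytokine. IFNG received interferon gamma at 20 ng/ml for 3 h, and pIL-4 + IFNG received IL-4, the wash and the rest before the same 3 h of interferon gamma. Each group had 2 samples but 1 loop list, so no difference between groups could be set against the spread between replicates and no p-value is given. Intervals below are 95% intervals that cover counting error only. Those of loop numbers treat each bin pair as an independent count, although called bin pairs can touch one another. Runs of 5 values below start with M0[CTR] and go on with M2[IL-4], then M2p[pIL-4], then IFNG, and end with pIL-4 + IFNG. Hi-C counts hold no expression, so the macrophage label could not be set against marker genes.

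Toll-like receptors recognize conserved microbial molecules and signal through adaptors such as Myd88 and Ticam1 to NF-kB and interferon regulatory factors. Tlr2 pairs with Tlr1 or Tlr6 to bind bacterial lipopeptides, Tlr5 binds flagellin, and Tlr4 binds endotoxin with the help of Cd14, which hands over the ligand and also assists other receptors. Tlr3 and Tlr9 act in endosomes, where they sense double-stranded RNA and unmethylated CpG DNA. Chromatin loops bring distant bins of a chromosome together, and loops held by CTCF and cohesin often join CTCF sites that face each other.

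The lists held between 53424 and 67728 loops and between 2174945 and 2787117 contacts. The median gene had between 6 and 8 loops, and between 23.9% and 26.9% of genes had none. Because the lists differed in length, loop numbers were compared as log2 ratios after division by list length and addition of 1 loop. A gene counted as higher or lower when this ratio passed 1.5-fold, among the 12249 genes with a mean of at least 5 loops over the 5 lists. Tlr3 and Tlr4 fell under that mean, so 6 of the 8 genes entered these counts.

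The 8 genes spanned nearly the whole range of loop numbers. Tlr1 had 72, 66, 85, 54 and 69 loops, more than 94.0% to 97.8% of genes had in the same list. Tlr6 had 50, 49, 59, 54 and 60 loops, and Tlr9 had 41, 46, 48, 47 and 49. These 3 genes were the most looped of the set in every list. Tlr5 followed with 29, 25, 35, 28 and 37 loops and Cd14 with 24, 31, 30, 22 and 32, and their counting intervals overlapped each other in each list. Tlr2 had 10, 4, 9, 15 and 7 loops. Tlr4 had at most 4 and Tlr3 at most 1. Tlr2 was thus the one gene of middle rank, with more loops than 41.1% to 65.2% of genes.

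**Figure D1:**
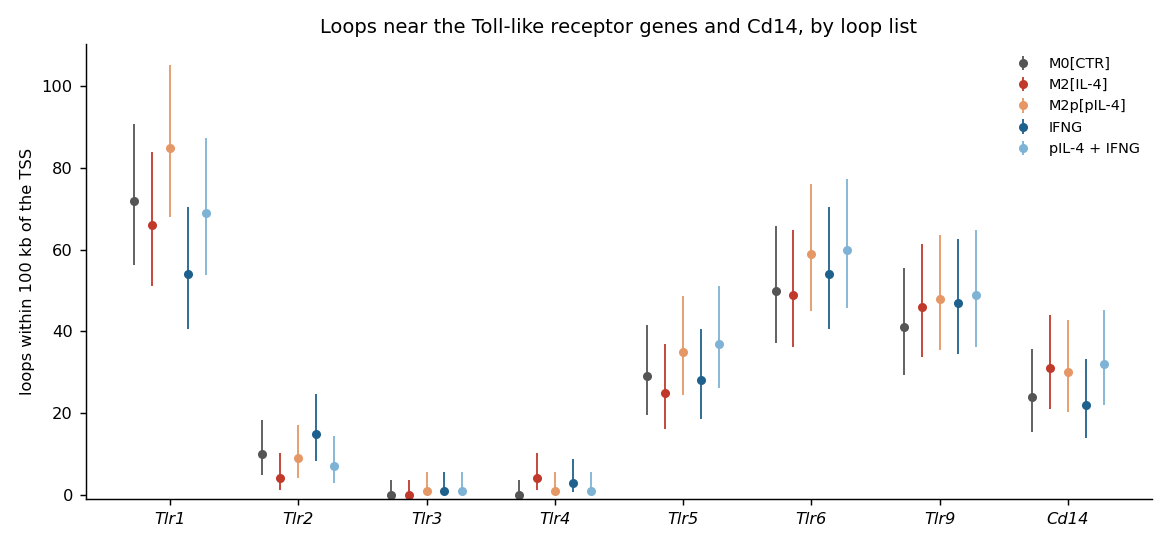
Number of loops with a bin within 100 kb of the TSS (y axis) for each gene (x axis) in the 5 loop lists (colours); points are the counts and bars are exact 95% Poisson intervals, which cover counting error only. Tlr1, Tlr6 and Tlr9 sit above 40 loops in every list, Tlr3 and Tlr4 at 4 or fewer, and Tlr2 runs from 4 to 15.

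Among the 6 genes, loop number passed 1.5-fold only for Tlr2. Against M0[CTR], M2[IL-4] had 0 of 6 genes higher and 1 lower, where 8.92% of all genes were higher and 7.82% lower. M2p[pIL-4] against M0[CTR] had none in either direction, beside backgrounds of 7.24% higher and 5.14% lower. M2p[pIL-4] against M2[IL-4] had 1 of 6 higher and 0 lower, beside 7.94% and 5.94%. With so few genes, 1 of 6 cannot be set apart from these backgrounds.

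The interferon gamma comparisons read the same way. IFNG against M0[CTR] had 0 of 6 past 1.5-fold, beside 10.2% of all genes higher and 8.49% lower. In primed cells, pIL-4 + IFNG against M2p[pIL-4] also had 0 of 6, beside 8.18% higher and 6.09% lower. Between the 2 groups given interferon gamma, pIL-4 + IFNG against IFNG had 1 of 6 lower and 0 higher, beside 4.91% of all genes lower and 7.36% higher. The median log2 ratio of the 6 genes lay between -0.20 and 0.09 in the 6 comparisons, and that of all genes between -0.04 and 0.02. The comparisons share lists and are not independent of each other.

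**Figure D2:**
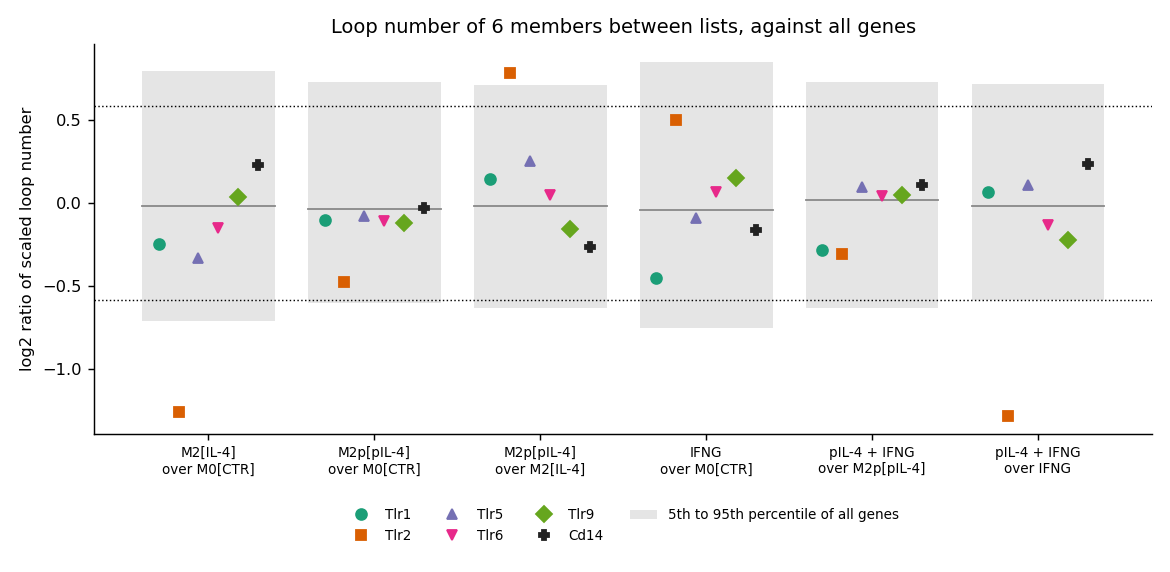
Log2 ratio of scaled loop number (y axis) of the 6 genes with a mean of at least 5 loops in the 6 comparisons (x axis); grey boxes span the 5th to the 95th percentile of all genes, grey lines mark their median and dotted lines mark 1.5-fold. Tlr2 lies outside the box in 3 comparisons, at -1.26, 0.78 and -1.28, and the other 5 genes lie inside every box.

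Tlr1 and Tlr6 are neighbours on chromosome 5 and share most of their loops. The Tlr1 gene body runs from 64924679 to 64933563 and that of Tlr6 from 64952031 to 64960097, both on the minus strand. Loops near both genes numbered 43, 38, 50, 45 and 51. These made up 57.6% to 83.3% of the Tlr1 loops and 77.6% to 86% of the Tlr6 loops, so the 2 genes are largely 1 set of contacts. Of the bin pairs near Tlr1, 14 of 175 were called in all 5 lists and 90 in 1 list, and near Tlr6 12 of 139 and 77. Over all loops 9.18% of bin pairs were called in all 5 lists and 55.5% in 1 list.

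Most of the Tlr1 and Tlr6 loops ran to a gene-free stretch on the low-coordinate side, which is downstream of both genes. The most looped bin near them, 64860001 to 64870000, overlapped no protein-coding gene and took part in 21, 17, 23, 20 and 21 loops. Its strongest partner was the bin 480 kb away at 64380001 to 64390000, with 40 (28.6 to 54.5), 54 (40.6 to 70.5), 40 (28.6 to 54.5), 70 (54.6 to 88.4) and 44 contacts (32.0 to 59.1). The pair averaged 3.05 times the median contact number of loops of the same span, the highest of any constant bin pair near the 8 genes. IFNG was the highest of the 5 lists at this pair, and its interval lay just above that of M0[CTR] and of M2p[pIL-4]. Both bins held an exact match to the CTCF consensus, read from GRCm38 on both strands and searched with at most 1 mismatch. The match in the near bin lay on the minus strand at chr5:64866818-64866831 and that in the far bin on the plus strand at chr5:64382626-64382639, so the 2 matches face each other. They are shown because they sit at both ends of this pair, in capitals because the whole run is the match:
Near bin: CCAGCAGAGGGCAC
Far bin: CCAGCAGGTGGCAC
A match within 1 mismatch was present in 21.4% of all 10 kb bins and 31.3% of bins used by any loop, so its presence in these bins is a description and not a mapped binding site. The share of bins with an exact match was not counted.

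The Tlr1 TSS bin had its own constant contact. With the bin at 64880001 to 64890000, 50 kb away and free of genes, it made 80, 73, 65, 79 and 75 contacts, at 1.31 times the usual number for that span. The intervals of all 5 counts overlapped. Tlr1 was the one gene of the 8 with a TSS-bin loop called in all 5 lists. Its other TSS-bin loops were called in 1 list each, among them a 300 kb contact with Wdr19 that had 22 contacts in M0[CTR] and was the strongest Tlr1 loop absent from M2[IL-4]. The Tlr6 TSS bin had 1 loop, in M2p[pIL-4], with 35 contacts. The loop number of Tlr1 in IFNG over M0[CTR] had a log2 ratio of -0.45 and a ratio of 0.728 (0.502 to 1.05), whereas Tlr6 stood at 0.07 and 1.05 (0.701 to 1.57). Loops of Tlr1 with a downstream partner outside the window numbered 60 of 72 in M0[CTR] and 37 of 54 in IFNG, a difference that was not tested.

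The RefSeq promoter of Tlr1 (250 bases before to 50 after the annotated start, GRCm38.p6) at this TSS held 1 match to GAGGAAGT, the ETS core that factors such as PU.1 recognize, which was found in 3.20% of 32817 promoters on either strand. It is shown because its bin carries the constant contact, with the match in capitals, for the minus strand of chr5:64933509-64933808:
Tlr1: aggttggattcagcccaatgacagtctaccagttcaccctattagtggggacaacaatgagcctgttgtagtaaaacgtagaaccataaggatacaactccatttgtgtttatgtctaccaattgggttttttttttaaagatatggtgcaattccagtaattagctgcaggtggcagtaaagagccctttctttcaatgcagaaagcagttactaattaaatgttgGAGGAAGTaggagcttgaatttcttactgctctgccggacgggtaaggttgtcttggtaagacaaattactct
RefSeq listed a second Tlr1 promoter in the same bin, at chr5:64932650-64932949, which held 1 match to the gamma-activated site TTCNNNGAA and no ETS core. Of the 2 Tlr6 promoters, that at chr5:64959999-64960298 held 2 matches to the gamma-activated site and the other none. A match to this site was present in 8.29% of promoters. Promoters were matched by symbol for 6 of the 8 genes, and those of Tlr4 and Cd14 were not matched.

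Tlr2, the shared partner of Tlr1 and Tlr6, lies on chromosome 3 from 83836272 to 83841767 on the minus strand. Its 10 loops in M0[CTR] (4.80 to 18.4) compared with 4 in M2[IL-4] (1.09 to 10.2), a log2 ratio of -1.26 and a ratio of 0.367 (0.0840 to 1.27). Only 1.03% of genes had a lower log2 ratio. After washout and rest the number was 9 (4.12 to 17.1), a log2 ratio of 0.78 over M2[IL-4] and -0.48 over M0[CTR]. The M2[IL-4] list was therefore the low point among the 3 lists of the priming series, although the counting intervals of all 3 numbers overlapped.

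The lists of the 2 groups given interferon gamma also differed at Tlr2. IFNG held 15 loops (8.40 to 24.7) and pIL-4 + IFNG 7 (2.81 to 14.4), a log2 ratio of -1.28 and a ratio of 0.383 (0.132 to 0.998), with 0.188% of genes lower. These 15 and 7 loops formed 6 and 3 groups of touching bin pairs. The interval counts each bin pair as independent, so its upper end below 1 does not serve as a test. Without earlier IL-4 the log2 ratio of IFNG over M0[CTR] was 0.50, and with it the ratio of pIL-4 + IFNG over M2p[pIL-4] was -0.31, neither past 1.5-fold. The calls rest on few loops, and all 3 were lost with a window of 50 kb or when touching bin pairs were merged, where Tlr2 no longer reached a mean of 5 loops.

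The loops that made up these numbers fell into 2 groups. The first joined gene-free bins downstream of Tlr2, or the bins of Tlr2 itself, to Tmem131l or to gene-free bins just before it. The pair of 83800001 to 83810000 with 83890001 to 83900000 was the one Tlr2 bin pair called in every list, with 52 (38.8 to 68.2), 38 (26.9 to 52.2), 43 (31.1 to 57.9), 38 (26.9 to 52.2) and 37 contacts (26.0 to 51.0). The intervals overlapped. Only 2 to 4 Tlr2 bin pairs were called in both lists of a comparison, where the contact ratio lay between 0.838 and 0.952 with every interval including 1. Bin pairs that lost or gained a call have no count in the other list, so these ratios do not show whether contacts near Tlr2 moved with the calls.

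The second group joined Tmem131l, upstream of Tlr2, to Mnd1, Trim2 and a bin beyond them. It held 5, 2, 3, 9 and 4 loops, and in each list all partners outside the window were upstream. Of the IFNG loops, that of 83940001 to 83950000 with the Mnd1 bin at 84110001 to 84120000 had 30 contacts and was called in no other list. The Tlr2 TSS bin contacted Tmem131l at 50 kb in M0[CTR], with 40 contacts (28.6 to 54.5), and a gene-free bin at 30 kb in M2p[pIL-4], with 58 (44.0 to 75.0). Neither bin pair was called in another list, but the 2 matched each other within 25 kb. With matching of bins within 25 kb, 4 of the 10 loops of M0[CTR] had no match in M2[IL-4] (40.0%, against 10.8% of all loops). Of the 4 loops of M2[IL-4], 0 were without a match in M0[CTR] (against 13.6%). The strongest of the loops lost in M2[IL-4] joined Tmem131l to a gene-free bin 410 kb away with 15 contacts. The same number, 4 of 10, had no match in IFNG (against 11.99% of all loops), although IFNG held 15 loops. In M2p[pIL-4] it was 2 of 10. With matching within 50 kb, 2 of the 10 had no match in M2[IL-4], and 2 had none in IFNG. The unmatched share was thus not particular to M2[IL-4]. No match to the CTCF consensus was found in the Tlr2 TSS bin or in either bin of the constant pair.

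**Figure D3:**
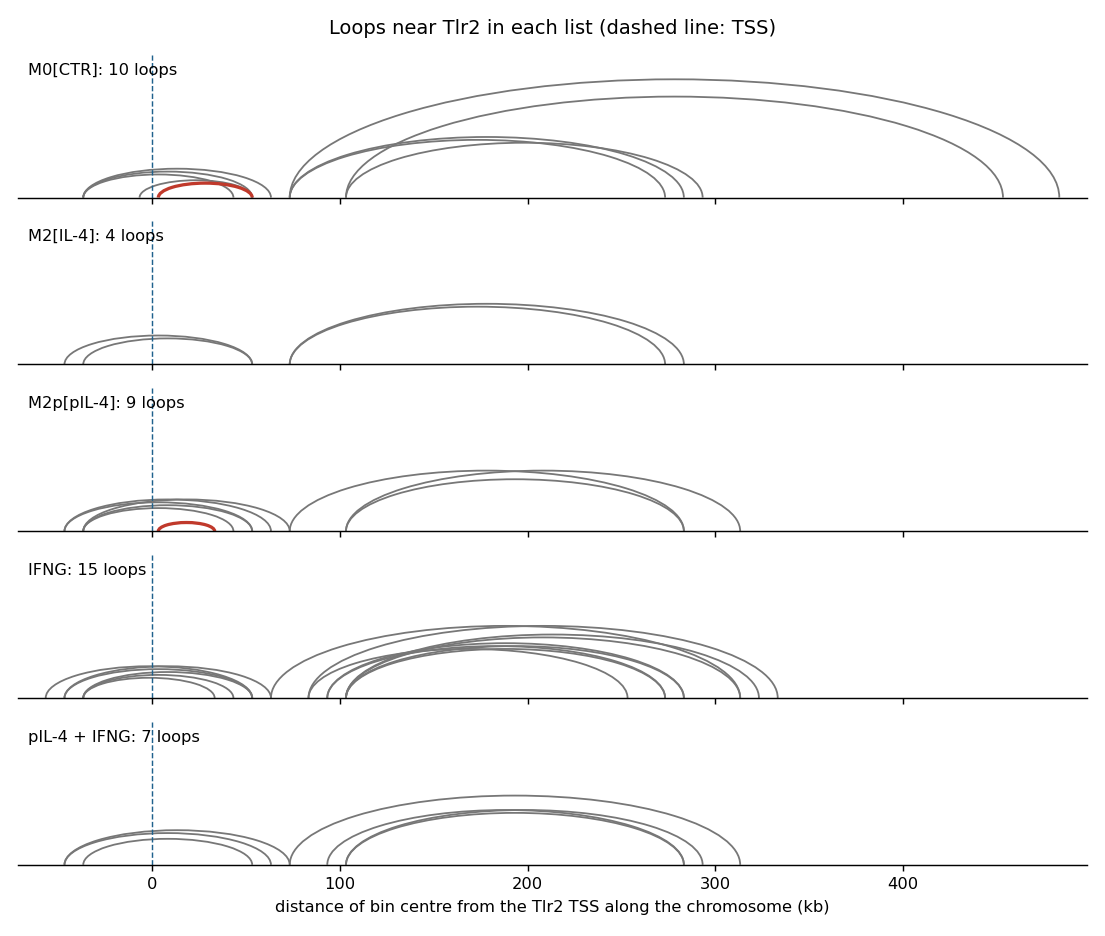
Loops near Tlr2 in the 5 lists (panels), drawn as arcs between bin centres at their distance from the TSS in kb (x axis; Tlr2 is on the minus strand, so positive values are upstream); arc height follows span only, red arcs touch the TSS bin and the dashed line is the TSS. The M2[IL-4] panel holds 4 arcs and the IFNG panel 15, of which 9 run from Tmem131l to bins over 200 kb upstream.

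The Tlr2 promoter is shown because the gene is the one whose loop number passed 1.5-fold. In the RefSeq sequence of chr3:83841559-83841858 (GRCm38.p6, minus strand), matches to the NF-kB consensus are in capitals:
Tlr2: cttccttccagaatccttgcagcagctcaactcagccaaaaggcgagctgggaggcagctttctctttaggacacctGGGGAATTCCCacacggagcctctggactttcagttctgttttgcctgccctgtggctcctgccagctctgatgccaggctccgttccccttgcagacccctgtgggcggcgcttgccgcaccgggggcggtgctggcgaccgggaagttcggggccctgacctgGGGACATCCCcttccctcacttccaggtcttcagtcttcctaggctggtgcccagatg
The search of both strands gave 3 matches, of which 2 overlap in the first capital run. NF-kB is the factor at the end of the Myd88 pathway, and 4.50% of promoters held a match. Neither the STAT6 site (TTC and GAA with 4 bases between them), present in 6.95% of promoters, nor the gamma-activated site occurred in this window.

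Tlr5, the flagellin receptor on chromosome 1 from 182954788 to 182976044 on the plus strand, kept its loop number within 1.5-fold, with log2 ratios between -0.33 and 0.25. Most of its loops led downstream, 18 to 31 per list against 2 to 5 upstream. The most looped bin, 182980001 to 182990000, lies just past the gene's end and took part in 8 or 9 loops per list. With the gene-free bin at 183040001 to 183050000 it had 70, 72, 67, 77 and 78 contacts, and with a bin inside Brox, 290 kb away, it had 48 (35.4 to 63.6), 39 (27.7 to 53.3), 42 (30.3 to 56.8), 62 (47.5 to 79.5) and 57 (43.2 to 73.8). Both IFNG-treated lists were the highest at the Brox pair, with intervals that overlapped those of the other lists. With the adjoining bin at 183260001 the most looped bin had 44, 41, 44, 34 and 30 contacts, so that both IFNG-treated lists were the lowest there. The TSS bin itself had 1 loop in each of 4 lists and none in M2[IL-4], and no 2 of these 4 were the same bin pair. By matching within 25 kb each of the 4 had a counterpart in M2[IL-4]. The strongest Tlr5 loop gained in M2[IL-4], a 20 kb contact at 182920001 with 182940001, had 103 contacts and was called in no other list. The bin at 183040001 to 183050000 held 2 CTCF matches with 1 mismatch each, both on the plus strand, at chr1:183042217-183042230 and chr1:183044001-183044014, shown because they lie at the end of the constant contact:
Tlr5 first match: CCAGCAGGTGGCGT
Tlr5 second match: CCAGAAGGGGGCGG
No match was found in the most looped bin.

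Contacts could be compared only at bin pairs called in both lists, so pairs that gained or lost a call are left out and ratios near 1 are partly set by that choice. Contacts were summed per gene over the shared pairs and scaled by the total over all of them. In M2[IL-4] over M0[CTR], the ratio was 1.03 for Tlr1 (0.940 to 1.13), 1.07 for Tlr5 (0.954 to 1.19), 0.958 for Tlr9 (0.896 to 1.02) and 0.978 for Cd14 (0.894 to 1.07). Over all genes the median was 0.997 with a 5th to 95th percentile range of 0.917 to 1.11. Among the 6 genes with at least 5 loops and the 6 comparisons, the one interval that excluded 1 was that of Cd14 in pIL-4 + IFNG over M2p[pIL-4], at 0.924 (0.857 to 0.996).

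Single bin pairs near the 8 genes past 1.5-fold numbered between 1 and 6 in the 6 comparisons. In M2[IL-4] over M0[CTR], 1 of 103 bin pairs was higher and 2 were lower, beside 2.19% higher and 1.41% lower over all bin pairs in both lists. In M2p[pIL-4] over M0[CTR], 0 of 108 were higher and 1 lower, beside 1.81% and 1.53%. In M2p[pIL-4] over M2[IL-4], 2 of 112 were higher and 1 lower, beside 1.65% and 1.74%. The most were in IFNG over M0[CTR], with 6, followed by pIL-4 + IFNG over IFNG, with 5. In pIL-4 + IFNG over M2p[pIL-4], 1 of 111 was higher and 0 lower, beside 1.76% and 1.71%. In pIL-4 + IFNG over IFNG, 2 of 98 were higher and 3 lower, beside 1.82% and 1.68%, and 4 of these 5 pairs shared the bin at 64860001 near Tlr1 and Tlr6. In IFNG over M0[CTR], 6 of 86 were higher and 0 lower, beside 1.8% and 1.55%. All 6 pairs of IFNG over M0[CTR] spanned 100 kb or more, as did 58 of the 86, and at that span 2.49% of all bin pairs were higher and 2.1% lower.

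The 6 pairs came from 3 loci and several shared a bin, so they were not independent of each other. Near Tlr1 and Tlr6, the bin at 64860001 had 70 against 40 contacts with 64380001 (ratio 1.70, 1.14 to 2.57) and 47 against 23 with the adjoining 64370001 (1.98, 1.18 to 3.42), and the bin at 64850001 had 25 against 15 with 64370001 (1.62, 0.820 to 3.30). Near Tlr5, the pair of 183040001 with the Brox bin at 183270001 had 56 against 33 contacts (1.65, 1.05 to 2.61) and that of 182980001 with 183230001 had 58 against 35 (1.61, 1.04 to 2.52). Near Tlr9, the pair of 106280001 in Poc1a with 106420001 at Rpl29 had 49 against 29 (1.64, 1.02 to 2.69). These pairs were picked for their ratio, so the intervals do not serve as tests. In primed cells the Tlr1 and Tlr6 pair with 64370001 stood at 32 against 19 contacts (1.71, 0.938 to 3.19), and the pair with 64380001 was lower in pIL-4 + IFNG than in IFNG, at 44 against 70 (0.638, 0.427 to 0.943).

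**Figure D4:**
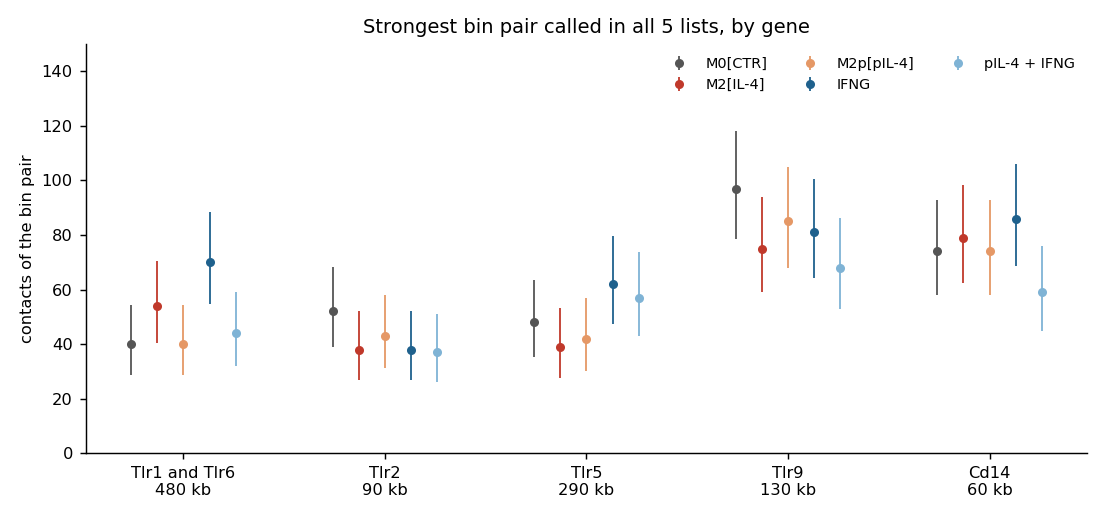
Contacts (y axis) of the strongest bin pair called in all 5 lists for each gene that had one (x axis, with its span in kb); points are counts by list and bars are exact 95% Poisson intervals. The Tlr1 and Tlr6 pair reaches 70 in IFNG against 40 in M0[CTR], whereas the Tlr2 and Cd14 intervals overlap throughout.

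Tlr9 on chromosome 9, from 106222598 to 106226883 on the plus strand, sits beside a dense block of constant contacts. Of its bin pairs, 19 of 85 were called in all 5 lists, beside 9.18% of all bin pairs and 13 of 62 near Tlr5. Every partner of a Tlr9 loop outside the window lay downstream. The strongest constant pair joined a Poc1a bin at 106290001 to the bin with the Rpl29 TSS at 106420001, with 97 (78.7 to 118), 75 (59.0 to 94.0), 85 (67.9 to 105), 81 (64.3 to 101) and 68 contacts (52.8 to 86.2). The adjoining Poc1a bin at 106300001 had 63, 81, 81, 75 and 76 contacts with the same partner, so that M0[CTR] was the highest at 1 bin and the lowest at the next. Loop number stayed within log2 ratios of -0.23 and 0.15. Both ends of the second pair held CTCF matches with 1 mismatch, on the minus strand in the Poc1a bin at chr9:106303016-106303029 and on the plus strand at chr9:106422847-106422860 and the minus strand at chr9:106421999-106422012 in the Rpl29 bin. The Poc1a match, at the lower coordinate, faces neither match in the Rpl29 bin. The matches are shown because this block dominates the Tlr9 loops:
Poc1a bin: CCACCAGATGCCAG
Rpl29 bin, plus strand: TCACTAGAGGGCAC
Rpl29 bin, minus strand: CCACAAGGGGGCAG

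The Tlr9 TSS bin, 106220001 to 106230000, had no loop in M0[CTR] and 2, 2, 1 and 3 loops in M2[IL-4], M2p[pIL-4], IFNG and pIL-4 + IFNG. Its contact with a gene-free bin 50 kb downstream was called in those 4 lists, with 49 contacts (36.2 to 64.8), 54 (40.6 to 70.5), 52 (38.8 to 68.2) and 49 (36.2 to 64.8). A TSS-bin loop in every list but M0[CTR] was found for 412 of 11750 genes with such a loop in any list, 3.51%. The pair next to it, from the Twf2 bin at 106210001 to the same downstream bin, was called in all 5 lists with 101, 94, 97, 99 and 83 contacts. By matching within 25 kb the Tlr9 promoter contact therefore had a counterpart in M0[CTR], although its own bin pair was not called there. No contact number is given for a bin pair that was not called, so a missing call does not show that contacts were fewer. M0[CTR] was also the shortest list, at 53424 loops.

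The RefSeq promoter of Tlr9 (chr9:106222348-106222647, GRCm38.p6, plus strand) held 1 ETS core match, on the reverse strand and in capitals. It is shown because the TSS bin gained calls in every list but M0[CTR]:
Tlr9: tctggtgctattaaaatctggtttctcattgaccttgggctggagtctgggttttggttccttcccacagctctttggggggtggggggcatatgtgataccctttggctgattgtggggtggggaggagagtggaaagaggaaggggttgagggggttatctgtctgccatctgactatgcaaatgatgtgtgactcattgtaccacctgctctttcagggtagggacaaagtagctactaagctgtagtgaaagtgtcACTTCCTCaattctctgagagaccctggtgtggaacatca
The window held no match to the STAT6, gamma-activated or NF-kB site.

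Tlr3 and Tlr4 had hardly any loops. Tlr4 on chromosome 4 runs from 66827584 to 66930284, and its 8 bin pairs had between 9 and 19 contacts each. Its loops numbered 0, 4, 1, 3 and 1, and 7 of the 8 bin pairs were called in 1 list only. All partners were downstream and in bins without protein-coding genes, and no loop touched the TSS bin. The strongest loop gained in M2[IL-4] ran 610 kb from the Tlr4 body with 14 contacts. The count of 0 in M0[CTR] had an interval up to 3.69 loops and the 4 in M2[IL-4] had an interval of 1.09 to 10.2, so the lists could not be told apart at this depth. Tlr3 on chromosome 8, from 45395665 to 45411080, had 3 bin pairs in all, 1 each in M2p[pIL-4], IFNG and pIL-4 + IFNG, with 12, 29 and 14 contacts. Each started in Fam149a or Cyp4v3 and none touched the TSS bin.

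By matching within 25 kb, loops that appeared or disappeared along the priming series made up small shares of those near the 8 genes. These shares were not counted with the same bins required, and whether they follow the density of loops near these genes was not tested. Of the 187 loops near them in M2[IL-4], 9 had no match in M0[CTR] or in M2p[pIL-4] (4.81%, against 7.23% of all loops), and 5 were absent from M0[CTR] but kept a match in M2p[pIL-4] (2.67%, against 6.32%). In M2p[pIL-4], 9 of 218 had no match in either earlier list (4.13%, against 8.35%). Among the 183 loops near them in M0[CTR], 4 were missing in M2[IL-4] and matched again in M2p[pIL-4] (2.19%, against 4.92%), of which 2 were near Tlr2. Another 12 had no match in either (6.56%, against 5.86%), of which 5 were near Tlr1. Tlr4 supplied 4 of the 9 loops found in M2[IL-4] alone.

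Other genes of the pathway were followed in a list of 40 accessory proteins, receptors, adaptors, kinases and inhibitors, of which 30 reached a mean of 5 loops. In M2[IL-4] over M0[CTR], 2 of the 30 were past 1.5-fold higher and 4 lower, where 8.92% of all genes were higher and 7.82% lower. For M2p[pIL-4] over M0[CTR] the counts were 1 higher and 2 lower, beside 7.24% and 5.14%, and for M2p[pIL-4] over M2[IL-4] 0 and 1, beside 7.94% and 5.94%. In IFNG over M0[CTR] 3 were higher and 0 lower, beside 10.2% and 8.49%. For pIL-4 + IFNG over M2p[pIL-4] the counts were 1 and 1, beside 8.18% and 6.09%, and for pIL-4 + IFNG over IFNG 0 and 0, beside 7.36% and 4.91%. None of these counts of 30 genes is set apart from its background here. In this list 4 genes passed 2-fold in at least 1 comparison. In M2[IL-4] over M0[CTR] 1 of the 30 was past 2-fold higher and 2 lower, beside 2.81% and 2.38% of all genes. For M2p[pIL-4] over M0[CTR] the counts were 0 and 2, beside 2.29% and 0.914%. For IFNG over M0[CTR] they were 1 and 0, beside 3.35% and 2.28%. These counts rest on few genes, and the loops that Tlr7 and Tlr8 share were not counted. Tlr7 and Tlr8, the neighbouring endosomal receptors for single-stranded RNA on the X chromosome, had 9, 3, 5, 6 and 6 loops and 13, 4, 6, 10 and 8 loops. Their log2 ratios in M2[IL-4] over M0[CTR] were -1.45 and -1.61. After washout they were still past 2-fold lower than in M0[CTR], at -1.08 and -1.34, where Tlr2 stood at -0.48. Traf3, an adaptor that directs signals to interferon genes, had 3, 8, 8, 6 and 7 loops, with a log2 ratio of 1.05 in M2[IL-4] over M0[CTR]. Tnfaip3, which encodes the NF-kB inhibitor A20, had 18, 32, 33, 40 and 42 loops, with log2 ratios of 0.67 in M2[IL-4] and 1.07 in IFNG over M0[CTR].

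Genes elsewhere with the most similar pattern of loop number over the 5 lists were picked by distance between centred log2 values. For Tlr2 they were Cd8a with 9, 3, 6, 10 and 6 loops (distance 0.366), Tnfrsf18 with 12, 5, 11, 15 and 11 (0.416) and Tmem114 with 9, 5, 10, 13 and 9 (0.466), of 12239 genes compared. For Tlr4 they were Ap1s3, Kcne4 and Ramp3, none closer than 0.716. For Cd14 they were Tmf1, Akr1b7 and Nr1d1, all within 0.0654. With 5 lists, close patterns arise easily among so many genes.

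Cd14, the co-receptor for endotoxin, lies on chromosome 18 from 36725067 to 36726798 on the minus strand, among closely spaced genes. Its TSS bin, 36720001 to 36730000, holds the whole gene and had 0, 2, 3, 0 and 3 loops. The 3 lists with a loop were those of cells exposed to IL-4, and the 2 without were those never exposed. This pattern was singled out after the values were seen. The 3 lists with a loop were also the longest, at 58260, 67728 and 67000 loops, against 53424 in M0[CTR] and 55012 in IFNG. Of all genes, 36.0%, 39.5% and 39.8% had a TSS-bin loop in them, against 34.8% and 35.0%. The Cd14 TSS-bin numbers were not scaled by list length, and whether they follow it was not tested. A TSS-bin loop in all 3 exposed lists and in neither of the other lists was found for 250 of 11750 genes, 2.13%, and for 21 genes, 0.179%, with at least 2 loops in each exposed list as for Cd14. Besides Cd14, these were Aldh18a1, Arhgap25, Arl4d, Cbr3, Ctdnep1, Cxcr6, Elp5, Fyn, Icam1, Igfbp4, Inhbe, Inpp4a, Kat8, Mmp12, Qtrt1, Slc2a3, St3gal1, Tomm40, Tspoap1 and Wipf2.

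The Cd14 promoter contacts were short and strong where they were called. With a gene-free bin 20 kb downstream, the TSS bin had 106 contacts in M2[IL-4] (86.8 to 128), 132 in M2p[pIL-4] (110 to 157) and 116 in pIL-4 + IFNG (95.8 to 139), 1.32 times the median of called loops at that span. With the next bin out, which holds the E230025N22Rik TSS, it had 91 (73.3 to 112), 87 (69.7 to 107) and 95 (76.9 to 116). With the adjoining bin on the other side, which holds the Tmco6 TSS, it had 161 (137 to 188) in M2p[pIL-4] and 159 (135 to 186) in pIL-4 + IFNG and was not called in M2[IL-4]. Contacts of a called pair did not differ beyond counting error among the lists that called it. The contact numbers in M0[CTR] and IFNG are unknown, since these pairs were not called there. For comparison, the 10th percentile of called loops in M0[CTR] was 67.5 contacts at 20 kb and 55 at 30 kb. The lowest called there had 41 and 35 contacts. These values do not bound the contacts of a pair that was not called.

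The neighbouring bins showed no such division. The Tmco6 bin, next to the Cd14 TSS bin, contacted the same E230025N22Rik bin in all 5 lists, with 68, 62, 73, 74 and 75 contacts, and the gene-free bin beside it with 73, 73, 64, 72 and 66. The strongest constant pair near Cd14 joined Slc35a4 to the bin with the Ik and Ndufa2 TSSs, 60 kb apart, with 74 (58.1 to 92.9), 79 (62.6 to 98.5), 74 (58.1 to 92.9), 86 (68.8 to 106) and 59 contacts (44.9 to 76.1). With the bins on both sides added, loops on the TSS bin numbered 3, 6, 8, 5 and 7. By matching within 25 kb, the Cd14 promoter contacts had a counterpart in M0[CTR] and IFNG, and 1 of the 31 loops near Cd14 in M2[IL-4] counted as gained (3.23%, against 13.6% of all loops). With the same bins required, 15 of the 31 counted as gained (48.4%, against 55.5% of all loops). Total loop number near Cd14 was 24 in M0[CTR] (15.4 to 35.7) and 22 in IFNG (13.8 to 33.3), against 31 (21.1 to 44.0), 30 (20.2 to 42.8) and 32 (21.9 to 45.2) in the 3 exposed lists. The log2 ratio was 0.23 in M2[IL-4] over M0[CTR], -0.03 in M2p[pIL-4] over M0[CTR] and 0.24 in pIL-4 + IFNG over IFNG. None passed 1.5-fold, and all intervals overlapped. These ratios depended on how loops were counted. With touching bin pairs merged, they were -0.48, -0.84 and -0.21 in the same order, so that none was higher and the second passed 1.5-fold lower, and with a window of 50 kb M2[IL-4] over M0[CTR] was -0.05.

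**Figure D5:**
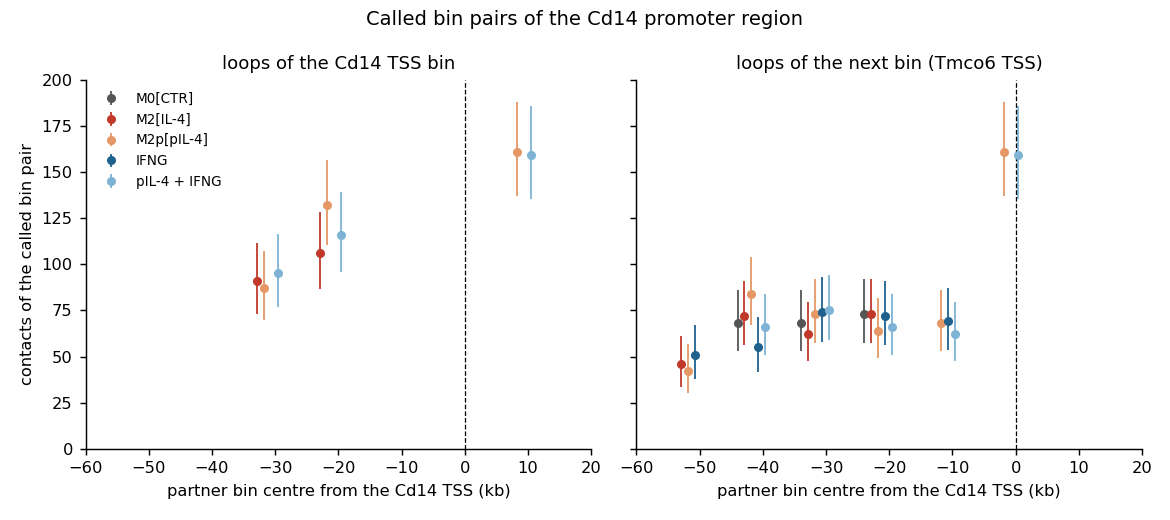
Contacts (y axis) of called bin pairs of the Cd14 TSS bin (left) and of the next bin, with the Tmco6 TSS (right), against the distance of the partner bin from the Cd14 TSS in kb along the chromosome (x axis; negative is downstream); points are counts by list, slightly offset, and bars are exact 95% Poisson intervals. The left panel has points only for the 3 lists of IL-4-exposed cells, whereas the right panel has pairs at -42, -32 and -22 kb for all 5 lists.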

How the data were processed

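Hi-C was done on 10 samples in 5 groups of 2. Per the labels the reads were processed on mm10, with FastQC, Bowtie2, HiC-Pro, Juicer and HOMER named among the tools, without versions. The authors deposited 1 loop list per group with a contact count for each pair of 10 kb bins, so replicates could not be compared. No label says what a list pools, and each was taken to be of both samples of its group. The deposited counts were whole numbers and were used as given. The methods describe loop calling at another resolution, and the caller and threshold behind these lists are not given in the sources used here. A bin pair that is not listed has no count.

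Members, lists and rules were chosen with earlier results of these data known. Loops were assigned within 100 kb of the TSS (GENCODE M21, protein-coding genes). Loop numbers were compared as log2((loops + 1) / list length) and called past 1.5-fold for genes with a mean of at least 5 loops. Ratios in the text with an interval have no added loop. Loops matched when both bins lay within 25 kb. Loop strength divides a contact count by the median of its list at equal span. Intervals are exact (95% Poisson, or conditional binomial for ratios) and cover counting error only. Other genes were named where a bin of a named loop overlapped them or held their TSS, where a pathway gene passed 2-fold, or as 1 of the 3 genes nearest in pattern to Tlr2, Tlr4 or Cd14; single loops were the strongest on the TSS bin, those gained and lost in M2[IL-4], and the most constant. Single bin pairs past 1.5-fold and the genes sharing the Cd14 pattern were named after their values were seen. Alternatives covered the window (50 and 200 kb), merging, scaling, the added loop (0.5), the threshold (2-fold), the filter and the matching. Loop counting was checked by a recount on the M0[CTR] list. Loop-number ratios and matching were checked on thinned and shifted copies of that list, the ratios only at genes with many loops. Contact ratios were not checked this way. Python 3.11.15, pandas 2.3.3, numpy 2.4.6 and scipy 1.17.1 were used.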

Additional observations from a re-analysis of the deposited data

Results flagged for a closer look

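For 3 of the 6 genes the log2 ratio of loop number with interferon gamma had opposite signs without and with earlier IL-4, and the difference was not tested because each group had 1 list. Tlr2 stood at 0.50 in IFNG over M0[CTR] and -0.31 in pIL-4 + IFNG over M2p[pIL-4], a difference of 0.80. Tlr5 stood at -0.09 and 0.09, a difference of -0.18. Cd14 stood at -0.16 and 0.11, a difference of -0.27. Opposite signs were found for 39.7% of the 12249 genes with a mean of at least 5 loops, and none of these 6 ratios passed 1.5-fold.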

How the results depend on the processing

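No paired analysis was possible because replicate numbers are absent from the values, with 1 loop list per group, and leaving out a replicate could not be run for the same reason. The 3 calls of Tlr2 (lower in M2[IL-4] over M0[CTR], higher in M2p[pIL-4] over M2[IL-4], lower in pIL-4 + IFNG over IFNG) kept their direction under every alternative run, with log2 ratios of -1.35 to -0.83, 0.48 to 1.00 and -1.68 to -0.79. With a window of 50 kb or merged loops the number of genes past 1.5-fold was 0 in each of these comparisons, since Tlr2 then had a mean under 5 loops. For M2p[pIL-4] over M2[IL-4] it was also 0 with a window of 200 kb, with a threshold of 2-fold and with lists of equal length. Without the filter Tlr3 and Tlr4 entered, and the number was 2 in M2[IL-4] over M0[CTR], 2 in M2p[pIL-4] over M0[CTR], 3 in M2p[pIL-4] over M2[IL-4], 2 in IFNG over M0[CTR] and 2 in pIL-4 + IFNG over IFNG. With merged loops it was 2 in M2p[pIL-4] over M0[CTR] (Tlr9 and Cd14, lower) and 2 in pIL-4 + IFNG over M2p[pIL-4] (Tlr1 and Tlr9, higher). Cutting every list to the length of the shortest, chosen after seeing the data, gave 1 in M2p[pIL-4] over M0[CTR] (Tlr2, lower). Without scaling and with 0.5 loops added, no count changed, although without scaling the median log2 ratio of all genes reached 0.31 in M2p[pIL-4] over M0[CTR], where 23.2% of genes were then higher and 1.27% lower. Of 288 member ratios, 2 left their counting interval, both with merged loops. Counts of gained and lost loops depended on the matching: 72 of 96 moved by over 1.5 times when the same bins were required and 53 of 96 with 50 kb. Loops on the Tlr9 TSS bin numbered 6, 8, 10, 12 and 10 with the bins on both sides added. For members with few loops, depth limits every comparison.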
